A study of Homo sapiens with 8 samples.

Results

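The chaperones of the endoplasmic reticulum (ER) and the genes of the unfolded protein response were followed in KYSE70 cells, a line established from a human squamous carcinoma of the esophagus. The members were 31 genes chosen by name from the 28281 genes of the deposited table. All 31 averaged 10 or more over the 8 libraries, the filter that left 15350 genes for testing. RNA was sequenced from cells given 20 nM mitoxantrone (n = 3), an anthracenedione that poisons type II topoisomerases, from cells given 10 µM pyrimethamine (n = 2), an antifolate, and from untreated cells (n = 3). Both exposures lasted 72 h. The series asked how these compounds, named there as inhibitors of the transcription factor NRF2, change gene expression in this single line. Whether the replicates are separate cultures is not stated in the labels. The p-values thus reflect spread among these libraries alone, and that spread may be technical.

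Values were read counts divided by size factors, called normalised read counts below, and the whole reads recovered from them numbered 17555689 to 24774358 per library. Across genes on the log2 scale, Pearson's r was 0.981 to 0.984 between mitoxantrone libraries, 0.890 between the pyrimethamine libraries and 0.988 to 0.990 between untreated libraries. Pyrimethamine replicate 1 had r of 0.784 to 0.830 with mitoxantrone libraries and 0.937 to 0.941 with untreated libraries, while replicate 2 had 0.953 to 0.967 with mitoxantrone libraries and 0.943 to 0.946 with untreated libraries. The pyrimethamine libraries therefore stood apart from each other, and their values are given 1 by 1. All 8 squamous markers (KRT5, KRT6A, KRT14, TP63, SOX2, KRT13, DSG3 and DSC3) had a mean of at least 10. Their summed normalised count was 65600 to 68000 with mitoxantrone, 74200 to 88700 with pyrimethamine and 112000 to 119000 in untreated cells. KRT5 made up most of that sum, and the markers did not all shift together. In pyrimethamine replicate 1, DSG3 (4470), DSC3 (5336) and KRT6A (19487) were above every untreated library. There KRT5, KRT14, TP63, SOX2 and KRT13 were below every untreated library. Of the fibroblast markers, 4 of 6 reached a mean of 10, with sums of 450 to 602, 1850 to 2060 and 1100 to 1210 in the same order of groups. COL1A1 made up most of these sums. With mitoxantrone COL1A1 and COL3A1 were below and LUM and PDGFRB above every untreated library, while COL1A2 and DCN overlapped. A mean of 10 was reached by 1 of 4 leukocyte markers, with sums of 105 to 142 with mitoxantrone, 99.8 to 129 with pyrimethamine and 53.2 to 64.3 in untreated cells. The same held for 1 of 3 endothelial markers, with sums of 80.7 to 194, 177 to 344 and 69.8 to 94.4. No marker was at 0 in all libraries, although the leukocyte markers CD3E and MS4A1 were at 0 in 7 of 8, and the part of these shifts in the results below was not tested. In bulk RNA, fewer cells of a type and less RNA per cell cannot be told apart.

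The ER folds and modifies secreted and membrane proteins with the help of chaperones, disulfide isomerases and lectins. When unfolded proteins build up there, the sensors IRE1, PERK and ATF6 pass a signal to the nucleus, and the transcription factors XBP1, ATF6 and ATF4 raise chaperone and degradation genes. Secretory cells use this response to match folding capacity to protein load.

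The promoter letters through which ATF6 and XBP1 act on this family are shown first, because the members fall into those that carry them and those that do not. RefSeq windows on GRCh38.p14 running from 250 bases before to 50 bases after each gene start were matched for 29 of the 31 members; PDIA3 and SEC24D had no window. The ER stress response element (ERSE, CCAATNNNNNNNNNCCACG, both strands) was present in 8 members, against 0.0769% of all 35116 windows of the same length. The related ERSE-II (ATTGG, any base, then CCACG, both strands) was present in 3 other members, against 0.0541% of windows. Here and below a member counted when any of its windows matched, with 37 windows for the 29 members. The shares beside them are of windows, those of the members included, so genes and windows are not matched units. Each instance is printed 5′ to 3′ along the motif's own strand, with the fixed letters in capitals and its GRCh38.p14 position.
HSPA5, ERSE on the gene strand, chr9:125241391-125241409: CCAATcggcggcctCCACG
HSP90B1, ERSE on the gene strand, chr12:103930216-103930234: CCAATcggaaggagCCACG
HSP90B1, ERSE on the other strand, chr12:103930321-103930339: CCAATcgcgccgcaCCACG
XBP1, ERSE on the gene strand, chr22:28800603-28800621: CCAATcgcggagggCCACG
CRELD2, ERSE on the other strand, chr22:49918554-49918572: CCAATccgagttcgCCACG
PDIA6, ERSE on the gene strand, chr2:10812853-10812871: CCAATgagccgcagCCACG
ERO1B, ERSE on the other strand, chr1:236282183-236282201: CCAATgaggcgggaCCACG
CALR, ERSE on the other strand, chr19:12938384-12938402: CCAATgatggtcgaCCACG
CANX, ERSE on the gene strand, chr5:179698778-179698796: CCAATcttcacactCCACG
HYOU1, ERSE-II on the other strand, chr11:119057380-119057390: ATTGGaCCACG
HYOU1, ERSE-II on the other strand, chr11:119057274-119057284: ATTGGaCCACG
SDF2L1, ERSE-II on the other strand, chr22:21642114-21642124: ATTGGtCCACG
HERPUD1, ERSE-II on the gene strand, chr16:56932025-56932035: ATTGGgCCACG

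Whole windows are given for 4 of these genes because each element is seen in a gene that was lower and in one that was higher with mitoxantrone: ERSE in HSPA5 (lower) and ERO1B (higher), ERSE-II in HYOU1 (lower) and HERPUD1 (higher). By GENCODE 29 on GRCh38, the genes lie at chr9:125234853-125241330 (HSPA5), chr11:119044189-119057202 (HYOU1), chr16:56932048-56944863 (HERPUD1) and chr1:236215555-236281985 (ERO1B). Capitals mark ERSE or ERSE-II and, in HYOU1, also the letters TGACGTGG of the unfolded protein response element (UPRE), which overlap its first ERSE-II. The window of HERPUD1 also holds TGATGCAA, a core of the ATF4 element, on the other strand; that element was in 0.866% of all windows and the UPRE in 0.729%.
HSPA5 promoter, chr9:125241294-125241593, minus strand: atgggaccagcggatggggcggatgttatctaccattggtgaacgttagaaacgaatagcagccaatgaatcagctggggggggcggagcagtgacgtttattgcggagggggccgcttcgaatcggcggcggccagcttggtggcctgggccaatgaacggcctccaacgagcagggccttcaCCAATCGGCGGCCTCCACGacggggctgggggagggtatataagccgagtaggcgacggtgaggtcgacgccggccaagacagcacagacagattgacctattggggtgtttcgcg
HYOU1 promoter, chr11:119057156-119057455, minus strand: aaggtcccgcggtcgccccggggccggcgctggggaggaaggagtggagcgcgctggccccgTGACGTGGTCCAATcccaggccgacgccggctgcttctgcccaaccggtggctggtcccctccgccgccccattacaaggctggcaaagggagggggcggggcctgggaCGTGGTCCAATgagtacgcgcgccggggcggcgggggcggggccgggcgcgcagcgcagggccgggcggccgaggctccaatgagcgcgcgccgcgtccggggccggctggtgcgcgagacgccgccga
HERPUD1 promoter, chr16:56931892-56932191, plus strand: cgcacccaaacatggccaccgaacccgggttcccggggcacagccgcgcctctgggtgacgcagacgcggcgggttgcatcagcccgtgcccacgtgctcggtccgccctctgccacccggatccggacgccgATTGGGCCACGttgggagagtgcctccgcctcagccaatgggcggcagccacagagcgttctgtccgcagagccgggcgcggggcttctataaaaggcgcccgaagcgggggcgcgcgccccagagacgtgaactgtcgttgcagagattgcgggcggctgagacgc
ERO1B promoter, chr1:236281909-236282208, minus strand: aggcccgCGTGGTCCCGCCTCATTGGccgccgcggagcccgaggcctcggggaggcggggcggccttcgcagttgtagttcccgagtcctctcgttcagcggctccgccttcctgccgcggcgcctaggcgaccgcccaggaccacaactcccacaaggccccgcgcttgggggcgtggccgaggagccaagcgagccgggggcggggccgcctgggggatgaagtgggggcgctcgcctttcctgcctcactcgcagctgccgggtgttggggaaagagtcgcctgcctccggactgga

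Among the 11 members with ERSE or ERSE-II letters, 2 were called higher and 4 lower with mitoxantrone, and their median log2 fold change was -0.34. Among the 20 members without them (PDIA3 and SEC24D, which had no window, included), 3 were called higher and 11 lower, with a median of -0.77. Over all genes 26.8% were called higher and 28.1% lower (54.9% in all), and no difference between members with and without the letters was tested. A match of letters is a description of the window and not a binding site. The plainer CCAAT box was in 25 of the 29 matched members and in 34.6% of all windows.

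With mitoxantrone, BiP (HSPA5), GRP94 (HSP90B1), HYOU1 and calnexin (CANX) were among the members that fell, and DNAJB9, ERO1B, HERPUD1, SEC61B and SEC61G rose. Of the 31 members, 20 differed from untreated cells at an adjusted p under 0.05 (limma on log2(value + 1), two-sided, Benjamini-Hochberg over 15350 genes), which is 64.5% of members against 54.9% of all genes tested. The 15 lower members were CREB3L2, ATF6, HSPA5, HSP90B1, HYOU1, DNAJB11, DNAJC3, P4HB, PDIA4, CANX, SEL1L, SYVN1, EDEM1, SEC61A1 and SEC24D, a share of 48.4% against 28.1% of all genes. The 5 higher members made a share of 16.1% against 26.8%. The median log2 fold change was -0.57 over the members and 0.00 over all genes. Mitoxantrone and untreated libraries did not overlap for 30 members (8 higher, 22 lower) against 79.9% of all genes, and XBP1 was the exception.

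Of these 20 calls, 15 held when any 1 of the 8 libraries was left out. The calls of ATF6, HERPUD1 and SEC61B were lost without any 1 of the 6 mitoxantrone or untreated libraries (highest limma adjusted p of 0.161, 0.113 and 0.0758), and those of HSP90B1 and DNAJB11 without any 1 of 5 of them, mitoxantrone replicate 3 excepted (0.0807 and 0.0798). Without either pyrimethamine library 27 members were called, CALR, CRELD2, EIF2AK3, ERN1 and PDIA3 lower and MANF and SSR1 higher in addition, against 77.1% of all genes, and the same 77.1% of all genes passed in the fit of these groups alone. Scaling by total reads, chosen after seeing the data, moved the median of all genes to -0.45 and the calls over all genes to 2788 higher and 5996 lower, beside 4119 and 4311; it called 4 members higher and 20 lower, beside 18.2% and 39.1% of all genes (57.2% in all), HERPUD1 no longer among them. Under it ATF6, P4HB and SEL1L were at -0.90, -1.25 and -1.27, over 1.5 times their values below. Of the 20 calls, 14 held in all 13 other settings. Quantile normalisation lost those of HSP90B1 (limma adjusted p = 0.0569), ATF6 and SEC61B, and either replicate block those of ATF6, DNAJB11 and HERPUD1. Length adjustment lost ATF6, SEC61B and SEL1L. ATF6 was also lost with upper-quartile scaling, and ATF6 and HERPUD1 with no filter.

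**Figure D1:**
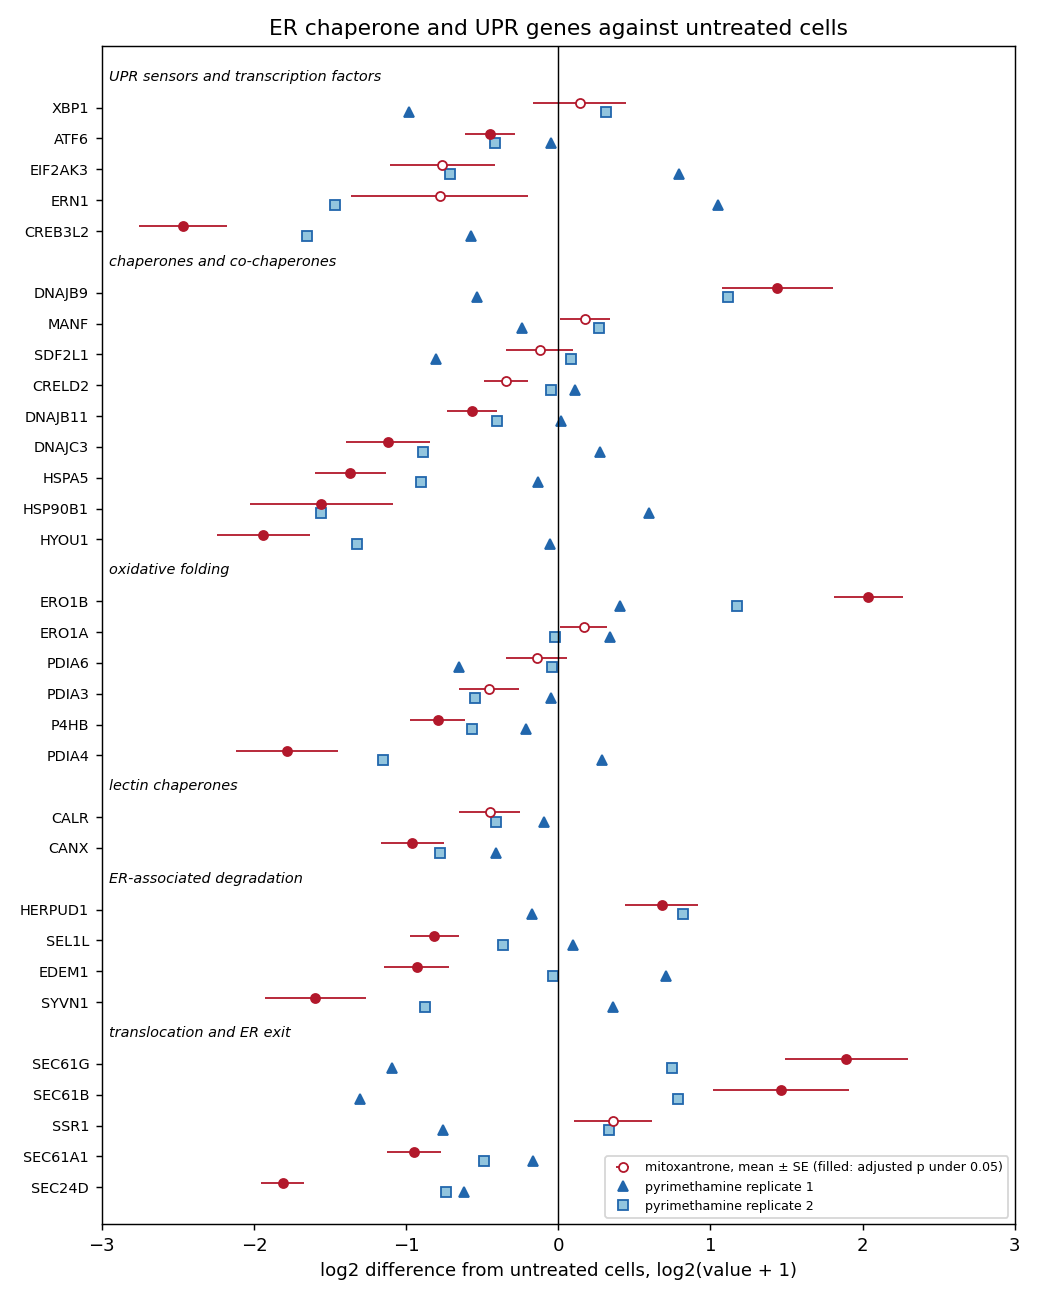
Log2 difference from untreated cells of each of the 31 members, grouped by role, on the log2(value + 1) scale. Circles are the mean log2 differences of mitoxantrone (n = 3) from untreated cells (n = 3), filled where the limma adjusted p was under 0.05. Bars are limma's standard error of that difference, with the spread taken from all 8 libraries together. Triangles and squares are pyrimethamine replicates 1 and 2, which lie on opposite sides of 0 for 19 of the 31 members.

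Among the sensors and transcription factors of the response, CREB3L2 and ATF6 fell with mitoxantrone and the other 3 did not pass the test (2 of 5 called, beside 54.9% of all genes). CREB3L2, an ER-bound transcription factor of the ATF6 type that drives secretory capacity, had normalised read counts of 153, 121 and 188 with mitoxantrone, 566 and 267 with pyrimethamine, and 800, 821 and 911 in untreated cells. All mitoxantrone libraries lay below all others. Its log2 fold change with mitoxantrone was -2.47 ± 0.29 (SE), a 5.53-fold lower level (limma adjusted p = 7.04e-04). ATF6, the sensor that is cut in the Golgi to free a transcription factor, had 516, 416 and 471 with mitoxantrone, 613 and 476 with pyrimethamine, and 652, 643 and 612 in untreated cells. The mitoxantrone libraries were again below every untreated one, with a log2 fold change of -0.45 ± 0.16 (limma adjusted p = 0.0464). With adjustment for transcript length its value was 0.16 (limma adjusted p = 0.458), so the direction turned.

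XBP1, the transcription factor whose mRNA is spliced by IRE1, had 3427, 3291 and 2617 with mitoxantrone, 1420 and 3486 with pyrimethamine, and 2803, 2822 and 2779 in untreated cells. The mitoxantrone and untreated libraries overlapped, and the difference of 0.14 ± 0.31 did not pass (limma adjusted p = 0.704); it was -0.15, -0.28 and -0.32 under quantile normalisation, length adjustment and total-read scaling. Gene counts do not separate its spliced from its unspliced form. ERN1, which encodes the sensor IRE1, was the least abundant member, with 32.9, 65.8 and 43.0 with mitoxantrone, 164 and 27.8 with pyrimethamine, and 76.3, 84.3 and 75.7 in untreated cells. EIF2AK3, which encodes the sensor PERK, had 153, 132 and 167 with mitoxantrone, 442 and 155 with pyrimethamine, and 265, 259 and 241 in untreated cells. For both sensors every mitoxantrone library was below every untreated one, and the pyrimethamine libraries lay on opposite sides of the untreated range. Neither difference passed the test with all libraries in the fit (ERN1 -0.78 ± 0.58, limma adjusted p = 0.27; EIF2AK3 -0.76 ± 0.34, adjusted p = 0.0889). In the fit of mitoxantrone and untreated libraries alone both passed (limma adjusted p = 0.017 and 2.99e-04).

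Among the 9 chaperones and co-chaperones, 5 fell and 1 rose with mitoxantrone (66.7% called, beside 54.9% of all genes). HSPA5 encodes BiP, the central ER HSP70 chaperone that also holds the sensors inactive; it had 5265, 5703 and 5819 with mitoxantrone, 13128 and 7706 with pyrimethamine, and 14731, 14806 and 13767 in untreated cells. The mitoxantrone libraries were the lowest of the 8, and the log2 fold change was -1.37 ± 0.23 (2.58-fold lower, limma adjusted p = 0.00258). HSP90B1, which encodes the ER HSP90 chaperone GRP94, had 2461, 2975 and 3392 with mitoxantrone, 12977 and 2909 with pyrimethamine, and 8480, 9139 and 8171 in untreated cells. Pyrimethamine replicate 1 exceeded every untreated library while replicate 2 lay within the mitoxantrone range. With mitoxantrone the log2 fold change was -1.56 ± 0.47 (limma adjusted p = 0.0232).

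HYOU1, the ER HSP110 that exchanges nucleotide on BiP, had 776, 794 and 1074 with mitoxantrone, 3224 and 1336 with pyrimethamine, and 3369, 3519 and 3149 in untreated cells. It was 3.83-fold lower with mitoxantrone, a log2 fold change of -1.94 ± 0.31 (limma adjusted p = 0.00192), with no overlap between mitoxantrone and untreated libraries. DNAJB9 (ERdj4), the BiP co-chaperone that recruits it to IRE1, moved the other way, with 1482, 1648 and 1305 with mitoxantrone, 373 and 1175 with pyrimethamine, and 563, 500 and 564 in untreated cells. Its log2 fold change was 1.44 ± 0.36 (2.71-fold higher, limma adjusted p = 0.0119). DNAJB9 shares 183 exonic bases with THAP5 on the opposite strand, and no strand setting is given, so its count may hold reads of that gene. The co-chaperones DNAJB11 and DNAJC3, which bring clients to BiP, were also lower, with log2 fold changes of -0.57 and -1.12 (limma adjusted p = 0.0195 and 0.0108). Adjusted for length, DNAJC3 was at -0.60; under total-read scaling DNAJB11 was at -1.03, and both stayed past the threshold.

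The small cofactors SDF2L1, CRELD2 and MANF did not pass. SDF2L1, a partner of DNAJB11, had 636, 679 and 671 with mitoxantrone, 412 and 763 with pyrimethamine, and 715, 755 and 693 in untreated cells, a difference of -0.12 ± 0.22 (limma adjusted p = 0.649). MANF, a secreted cofactor of BiP, had 1211, 1250 and 1214 with mitoxantrone, 919 and 1303 with pyrimethamine, and 1063, 1108 and 1078 in untreated cells, a difference of 0.18 ± 0.16 (limma adjusted p = 0.37). Without length adjustment their differences are small beside those of BiP and HYOU1, although the libraries of the groups did not overlap. Adjusted for transcript length, these 3 short genes were called lower. SDF2L1 was at -1.13, CRELD2 at -1.07 and MANF at -0.67 (limma adjusted p = 3.33e-04, 0.00499 and 0.00489), which turns the direction of MANF. In that fit HSPA5 was at -1.02 and HYOU1 at -1.51, so SDF2L1 and CRELD2 were not small beside BiP there.

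**Figure D2:**
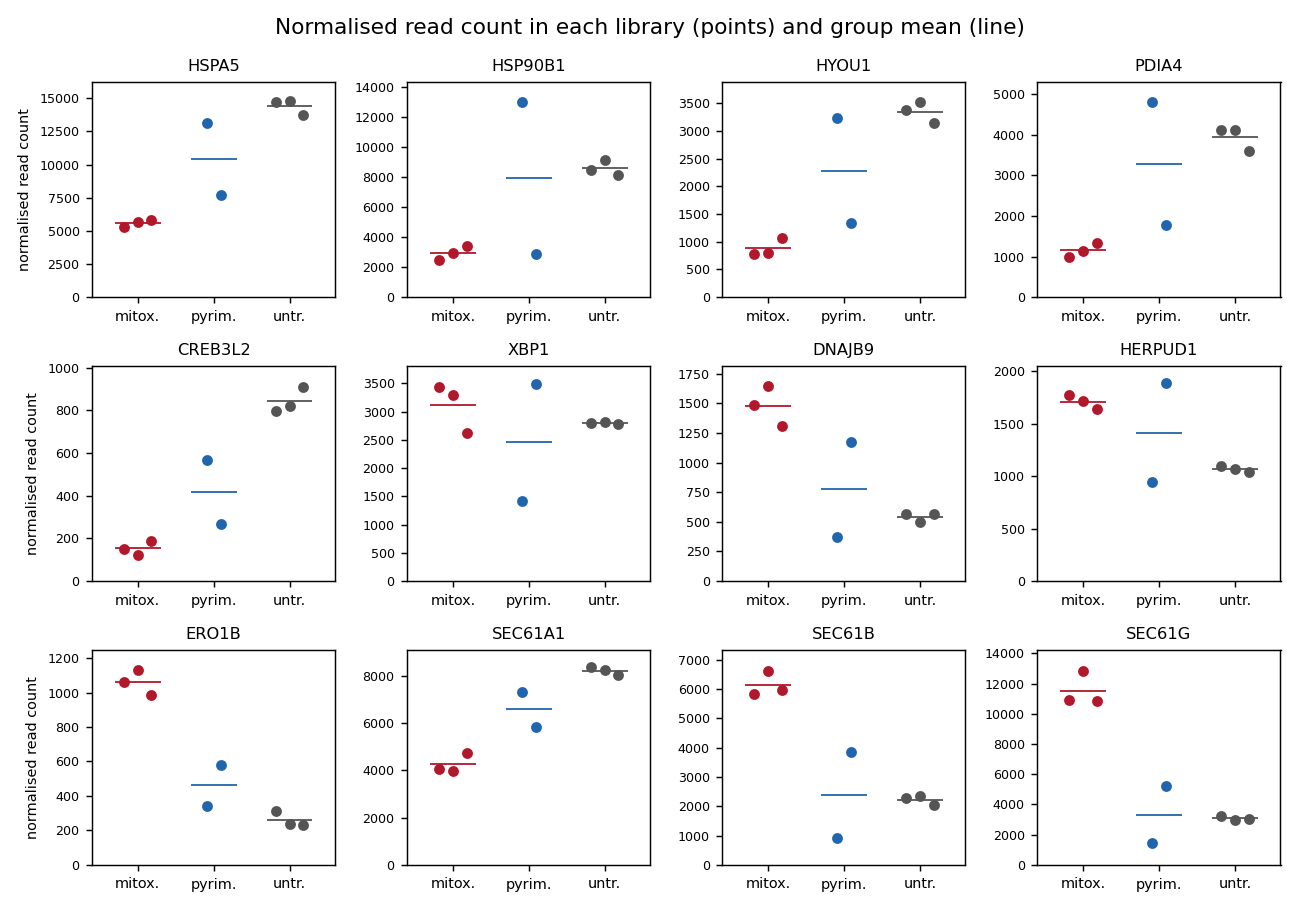
Normalised read count (y axes, starting at 0) of 12 members in each library, with points for libraries and lines for group means of mitoxantrone (mitox., n = 3), pyrimethamine (pyrim., n = 2) and untreated cells (untr., n = 3). With mitoxantrone HSPA5, HSP90B1, HYOU1, PDIA4, CREB3L2 and SEC61A1 lie below untreated cells and DNAJB9, HERPUD1, ERO1B, SEC61B and SEC61G above them; XBP1 overlaps.

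In oxidative folding, 2 disulfide isomerases fell, 1 oxidase rose and 3 genes did not pass (50.0% called, beside 54.9% of all genes). ERO1B, an oxidase that recharges the disulfide isomerases and is best known from pancreatic islets, had 1062, 1131 and 988 with mitoxantrone, 340 and 582 with pyrimethamine, and 310, 239 and 230 in untreated cells. Every mitoxantrone library was above every pyrimethamine one, and these were above every untreated one. ERO1B was 4.10-fold higher with mitoxantrone, a log2 fold change of 2.04 ± 0.23 (limma adjusted p = 6.06e-04). Its relative ERO1A, the widely expressed oxidase, had a difference of 0.17 ± 0.15 that did not pass (limma adjusted p = 0.37), and it was 0.66 once adjusted for length, which passed (adjusted p = 0.00372), but -0.29 under total-read scaling, where the direction turned. PDIA4 (ERp72) was 3.44-fold lower (log2 fold change of -1.78, limma adjusted p = 0.00366) and P4HB, the classical disulfide isomerase, 1.73-fold lower (-0.79, adjusted p = 0.00756). PDIA3 (ERp57), which works with the lectins, and PDIA6 had differences of -0.45 and -0.14 that did not pass (limma adjusted p = 0.0813 and 0.561). PDIA3 has a pseudogene copy in the table, PDIA3P1, and overlaps genes on the opposite strand, so its count is uncertain. The same lack of a strand setting bears on DNAJB11, PDIA6, SEC61A1 and SYVN1, whose exons overlap protein-coding genes on the opposite strand. It also bears on HYOU1, EIF2AK3, P4HB, ERO1A, CALR, EDEM1 and SSR1, whose exons overlap antisense genes. DNAJB11 overlaps the protein-coding gene AC068631.2 on its own strand as well, which a strand setting would not resolve.

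The lectin chaperones calreticulin and calnexin hold glycoproteins until they fold. CANX, the membrane-bound calnexin, had 11238, 10690 and 10438 with mitoxantrone, 15795 and 12252 with pyrimethamine, and 20974, 20588 and 21306 in untreated cells. The 3 groups did not overlap at any point, and with mitoxantrone CANX was 1.94-fold lower (log2 fold change of -0.96 ± 0.21, limma adjusted p = 0.0066; -0.56 adjusted for length, also past the threshold). CALR, the soluble calreticulin, had 11365, 11806 and 11651 with mitoxantrone, 14857 and 11953 with pyrimethamine, and 15909, 16650 and 15063 in untreated cells. Every treated library was below every untreated one, but the difference of -0.45 ± 0.20 did not pass in the fit of all libraries (limma adjusted p = 0.0864) and did in that of mitoxantrone and untreated cells alone (2.09e-05).

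All 4 members of ER-associated degradation, which sends misfolded proteins to the proteasome, passed the test, 3 lower and 1 higher, beside 54.9% of all genes called. HERPUD1, a membrane organiser of the degradation complex, had 1778, 1715 and 1638 with mitoxantrone, 945 and 1887 with pyrimethamine, and 1098, 1067 and 1038 in untreated cells. Its log2 fold change with mitoxantrone was 0.68 ± 0.24 (limma adjusted p = 0.041), and 0.22 under total-read scaling, where it did not pass (adjusted p = 0.213). SEL1L, the scaffold of the ubiquitin ligase, had 997, 893 and 935 with mitoxantrone, 1770 and 1288 with pyrimethamine, and 1598, 1632 and 1739 in untreated cells. It was 1.76-fold lower (log2 fold change of -0.81 ± 0.16, limma adjusted p = 0.00478), and -0.19 after adjustment for length, which did not pass (adjusted p = 0.317). SYVN1, the ligase HRD1 that SEL1L anchors, fell with a log2 fold change of -1.60 ± 0.33 (limma adjusted p = 0.00564). EDEM1, which hands over misfolded glycoproteins, had 455, 509 and 576 with mitoxantrone, 1590 and 950 with pyrimethamine, and 1049, 967 and 913 in untreated cells. It was 1.91-fold lower with mitoxantrone (log2 fold change of -0.93 ± 0.21, limma adjusted p = 0.00788), and -0.38 after adjustment for length (adjusted p = 0.0331).

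Subunits of the same translocation channel moved in opposite directions, and of the 5 members of translocation and ER exit 2 rose and 2 fell (80.0% called, beside 54.9% of all genes). The SEC61 channel passes new proteins into the ER and is built of the large subunit SEC61A1 with the small subunits SEC61B and SEC61G. SEC61G had 10912, 12843 and 10825 with mitoxantrone, 1450 and 5189 with pyrimethamine, and 3264, 2958 and 3063 in untreated cells. SEC61B had 5815, 6629 and 5963 with mitoxantrone, 900 and 3841 with pyrimethamine, and 2268, 2356 and 2050 in untreated cells. For both small subunits mitoxantrone libraries were the highest, pyrimethamine replicate 2 came next, and pyrimethamine replicate 1 was the lowest of all. The log2 fold changes with mitoxantrone were 1.89 ± 0.40 for SEC61G and 1.46 ± 0.45 for SEC61B (limma adjusted p = 0.00608 and 0.0243), and 0.82 and 0.33 after adjustment for length, where SEC61B did not pass (adjusted p = 0.00955 and 0.261).

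SEC61A1 fell with a log2 fold change of -0.95 ± 0.18 (limma adjusted p = 0.00367), and was lower in every mitoxantrone library than in any other. SSR1, a subunit of the translocon-associated complex, had a difference of 0.36 that did not pass (limma adjusted p = 0.257) and was -0.0998 under total-read scaling. SEC24D, a cargo-binding subunit of the COPII coat of ER exit vesicles, had 190, 186 and 200 with mitoxantrone, 438 and 404 with pyrimethamine, and 689, 672 and 665 in untreated cells. Its groups were fully separated and tight, and its log2 fold change of -1.81 ± 0.14 had the smallest adjusted p of all members (3.51-fold lower, limma adjusted p = 1.97e-04).

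Ratios of counts per kilobase of transcript show these splits within a library. A gene is divided by the same length in every library, so the ratios keep any shift with length between groups. SEC61G and SEC61A1 are 732 and 3635 nt long. Adjusted for length, their log2 fold changes with mitoxantrone were 0.82 and -0.65, beside 1.89 and -0.95 without it. SEC61G to SEC61A1 was 13.3, 16.0 and 11.3 with mitoxantrone, 0.984 and 4.40 with pyrimethamine, and 1.94, 1.78 and 1.89 in untreated cells. DNAJB9 to HSPA5 was 0.381 ± 0.0509 with mitoxantrone and 0.0542 ± 0.00524 in untreated cells (SD, n = 3 each), and HERPUD1 to HSPA5 was 0.407 ± 0.0379 and 0.0982 ± 0.00227 in the same groups. PDIA4 to PDIA6 moved the other way, 0.167 ± 0.0388 with mitoxantrone against 0.512 ± 0.0302 in untreated cells. CALR to CANX was 2.41 ± 0.129 with mitoxantrone against 1.70 ± 0.114 in untreated cells. HSP90B1 to HSPA5 was 0.639, 0.713 and 0.797 with mitoxantrone, 1.35 and 0.516 with pyrimethamine, and 0.787, 0.844 and 0.812 in untreated cells. In this last ratio the mitoxantrone and untreated libraries overlapped, and in the others named here they did not. These pairs were picked with the members' changes known and carry no test.

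**Figure D3:**
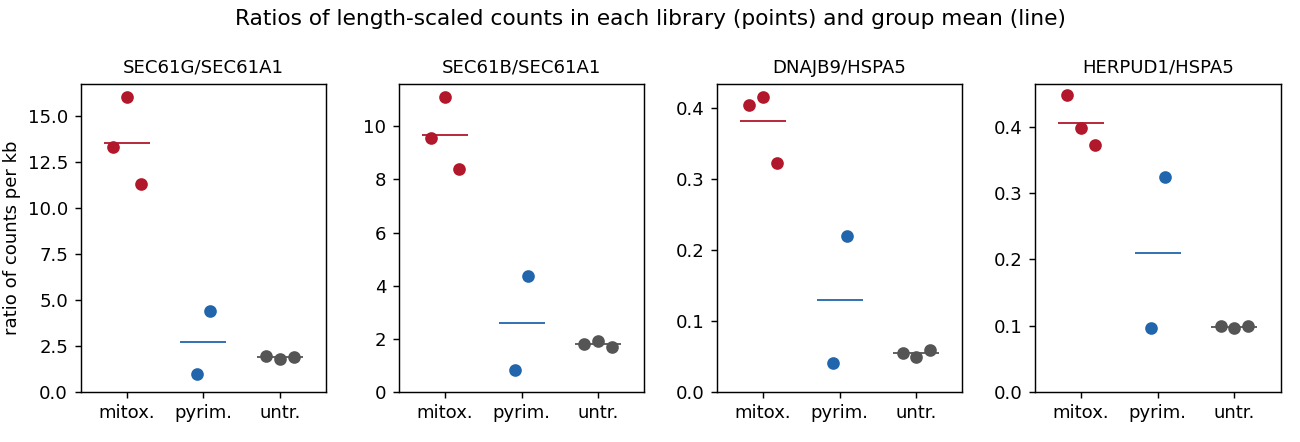
Ratios of normalised read counts per kilobase (y axes, starting at 0) in each library, with points for libraries and lines for group means of mitoxantrone (n = 3), pyrimethamine (n = 2) and untreated cells (n = 3). SEC61G to SEC61A1 lies between 11.3 and 16.0 with mitoxantrone and between 1.78 and 1.94 in untreated cells, with pyrimethamine at 0.984 and 4.40.

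By level per kilobase, CALR led the members in untreated cells with 8342 ± 417 normalised counts per kilobase (SD, n = 3), followed by CANX with 4919 ± 84.4. SEC61G (4228 ± 212), SEC61B (4082 ± 289), P4HB (3750 ± 55.0) and HSPA5 (3694 ± 148) came next, and neighbours among these 4 overlapped in their libraries. ERN1 was last with 10.0 ± 0.613. With mitoxantrone SEC61G and SEC61B took ranks 1 and 2, HSPA5 stood at rank 9 and HSP90B1 at rank 12, against ranks 3, 4, 6 and 7 in untreated cells. ERO1B stood at rank 21 with mitoxantrone and at rank 29 in untreated cells. Like the ratios, these ranks keep any shift with length between groups.

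With pyrimethamine, 0 of the 31 members passed limma's test against untreated cells, beside 3.60% of all genes (2.29% higher, 1.31% lower). At an unadjusted p under 0.05 there were 4 members, SEC24D, CREB3L2, ERO1B and CANX, beside 2971 of the 15350 genes tested. DESeq2 called the same 4, ERO1B higher and the others lower, and 11.3% of all genes. By edgeR 0 members and 4.36% of all genes were called. The median log2 difference was -0.26 over the members and -0.08 over all genes. Differences of these 4 were -0.68 ± 0.16 for SEC24D, -1.11 ± 0.32 for CREB3L2, 0.79 ± 0.25 for ERO1B and -0.59 ± 0.23 for CANX (limma adjusted p = 0.0546, 0.101, 0.133 and 0.21). In each of them both pyrimethamine libraries lay outside the untreated range on the same side. Libraries did not overlap for 10 members (1 higher, 9 lower), against 32.7% of all genes.

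The spread between the pyrimethamine libraries was wide, and its part in the count of 0 was not tested. For 12 members both libraries deviated in the same direction from the mean of untreated cells, against 44.5% of all genes: ERO1B above, and ATF6, CREB3L2, HSPA5, HYOU1, P4HB, PDIA3, PDIA6, CALR, CANX, SEC61A1 and SEC24D below. In 8 members replicate 1 was below and replicate 2 above (XBP1, DNAJB9, SDF2L1, MANF, HERPUD1, SEC61B, SEC61G and SSR1), and in 11 the reverse held (ERN1, EIF2AK3, HSP90B1, DNAJB11, DNAJC3, CRELD2, PDIA4, ERO1A, SEL1L, SYVN1 and EDEM1). Without pyrimethamine replicate 1, 24 members were called (6 higher, 18 lower) against 47.4% of all genes (24.6% higher, 22.8% lower), and without replicate 2, 16 (5 higher, 11 lower) against 49.3% (19.8% higher, 29.6% lower); in both fits the lone library was taken to vary like the other groups. Replicate 1 was above every untreated library in 12 members and below in 17, beside 42.1% and 44.9% of all genes, and replicate 2 in 9 and 19, beside 44.3% and 42.8%. HSP90B1, for example, differed from untreated cells by 0.60 in replicate 1 and by -1.56 in replicate 2.

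Set directly against each other, mitoxantrone and pyrimethamine differed in 12 members, 3 higher and 9 lower, beside 41.0% of all genes (21.2% higher, 19.9% lower). Their libraries did not overlap for 19 members, against 63.3% of all genes. ERO1B, SEC61B and SEC61G were higher with mitoxantrone, with log2 differences of 1.25, 1.72 and 2.07 (limma adjusted p = 0.0207, 0.0315 and 0.0222). CREB3L2, EDEM1, HSPA5, HYOU1, PDIA4, SEC24D, SEC61A1, SEL1L and SYVN1 were lower, by values between -1.36 for CREB3L2 and -0.62 for SEC61A1. With adjustment for length the differences of SEC61B (0.61), HSPA5 (-0.48), SEC61A1 (-0.31) and SEL1L (-0.0525) did not pass (limma adjusted p = 0.0921, 0.0685, 0.133 and 0.82). Those of CREB3L2 (-0.74), HYOU1 (-0.81), EDEM1 (-0.70), SEC24D (-0.75) and SEC61G (1.01) were smaller and still passed. Under total-read scaling ERO1B and SEC61B were at 0.57 and 1.04, and the 9 lower members were all at -1.30 or below. The compounds were given at different concentrations, so their responses are not matched in dose. At an unadjusted p under 0.05 there were 15 members, beside 8479 of the 15350 genes tested. No member was called by limma in the fit of these 2 groups alone, where 0.00% of all genes were, while edgeR and DESeq2 on all libraries called 13 and 17, beside 43.7% and 52.7% of all genes. Leaving out mitoxantrone replicate 1 or 2 left 0 members (0.00% and 0.0130% of all genes). Leaving out any 1 untreated library left 5 (16.1%, 13.9% and 14.1% of all genes without untreated replicates 1, 2 and 3), mitoxantrone replicate 3 6 (16.7%), pyrimethamine replicate 1 12 (35.3% of all genes) and pyrimethamine replicate 2 30 (75.8%), while total-read scaling gave 23 (52.4%).

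Change followed transcript length among the members, as it did among all genes. Spearman's rho between transcript length and log2 difference over the 31 members was -0.37 with mitoxantrone, 0.47 in pyrimethamine replicate 1 and -0.36 in replicate 2. Over the 14025 tested genes with a length it was -0.42, 0.34 and -0.38. For untreated replicates 1, 2 and 3 against the untreated mean, rho was 0.06, -0.27 and 0.02 over the members. Over the genes with a length it was -0.11, 0.06 and 0.03 in these libraries. All values of a library share its scaling and RNA, so rho is a description. Of the 17 members of at least 3000 nt, 1 rose and 11 fell with mitoxantrone, beside 15.1% and 42.3% of all genes of that length. Of the 11 members of 1000 to 3000 nt, 2 rose and 4 fell, beside 32.6% and 18.8%. The 3 members under 1000 nt were SDF2L1, SEC61B and SEC61G, of which 2 rose, beside 51.7% of all genes of that length. In the fit adjusted for length 22 members were called with mitoxantrone, against 53.4% of all genes, 2 with pyrimethamine, against 7.46%, and 13 between the compounds, against 36.5%. Total-read scaling called 1 member with pyrimethamine, ERO1B, against 4.65%.

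**Figure D4:**
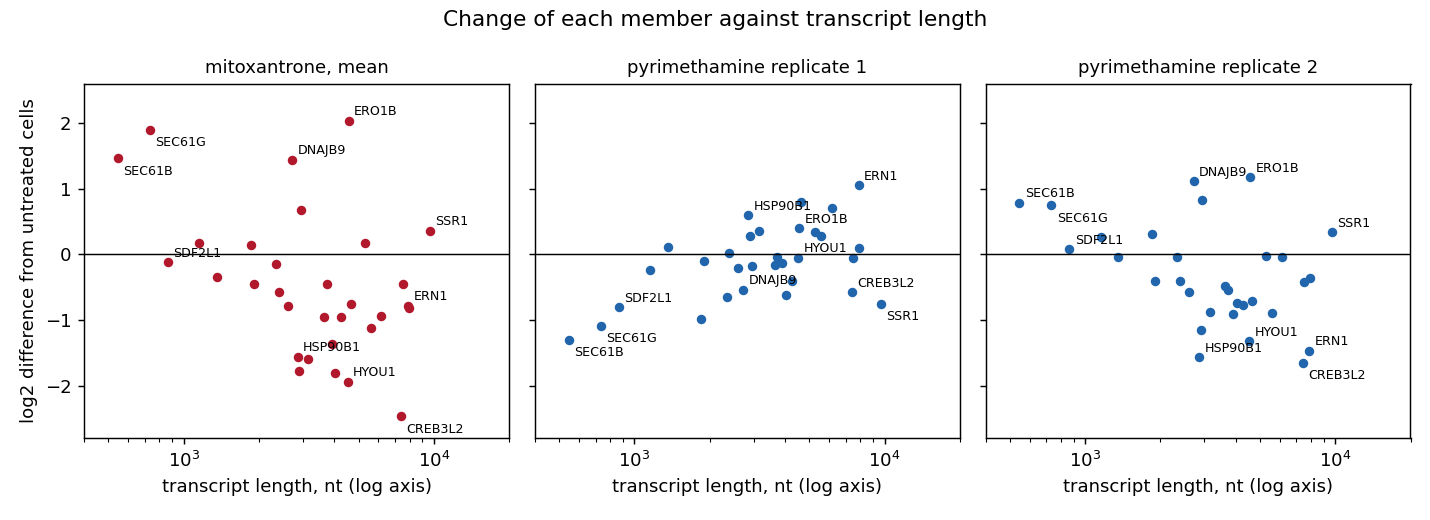
Log2 difference from untreated cells (y axis) against transcript length in nucleotides (x axis, log scale) for the 31 members, with mitoxantrone (mean of 3 libraries) at the left, then pyrimethamine replicates 1 and 2. The slope is downward with mitoxantrone (Spearman's rho of -0.37) and in pyrimethamine replicate 2 (-0.36) and upward in pyrimethamine replicate 1 (0.47).

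Neighbouring genes of the pathway were read from lists that hold no member, and 54.9% of all genes were called with mitoxantrone (26.8% higher, 28.1% lower). In the branch below PERK, 3 of 12 genes rose and 5 fell with mitoxantrone, with a median of 0.05. ATF3, a stress-induced transcription factor, had 3365, 3123 and 3049 with mitoxantrone, 1152 and 2199 with pyrimethamine, and 646, 665 and 754 in untreated cells, and rose with both compounds (log2 fold change of 2.21 with mitoxantrone, limma adjusted p = 5.13e-04, and 1.21 with pyrimethamine, 0.0462). DDIT4, an inhibitor of mTORC1, had 691, 653 and 532 with mitoxantrone, 766 and 1392 with pyrimethamine, and 4446, 4596 and 4156 in untreated cells, and fell with both (-2.82, limma adjusted p = 2.16e-04, and -2.09, 0.0119). In the fit of pyrimethamine and untreated libraries alone neither ATF3 nor DDIT4 passed (limma adjusted p = 0.229 and 0.17), and 0.00% of all genes did. TRIB3, a pseudokinase of the same branch, fell with mitoxantrone (-1.13, limma adjusted p = 0.00465), and had -0.62 with pyrimethamine, which did not pass (0.225). ATF4, the transcription factor of the branch, and its target DDIT3 (CHOP) had changes of -0.49 and 0.58 with mitoxantrone (limma adjusted p = 0.0416 and 0.0226). Both genes were chosen after their values were seen. That of ATF4 was -0.95 under total-read scaling and -0.81 with length adjustment (limma adjusted p = 0.00143 and 0.00189). That of DDIT3 was 0.12 under total-read scaling and -0.39 with length adjustment, neither past the test.

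Among 23 other ER folding factors, 6 rose and 10 fell with mitoxantrone (median -0.29). GANAB, the catalytic subunit of glucosidase II that trims glycans for the lectin cycle, had 2805, 3209 and 3549 with mitoxantrone, 7450 and 4458 with pyrimethamine, and 11889, 11231 and 10662 in untreated cells (log2 fold change of -1.83, limma adjusted p = 8.75e-04). UGGT2, a glucosyltransferase that returns misfolded glycoproteins to that cycle, rose by 1.29 and FKBP14, an ER prolyl isomerase, by 0.97 on the log2 scale (limma adjusted p = 0.00102 and 0.00151). Among 17 other degradation factors 6 rose and 5 fell (median 0.50), with VCP, the ATPase that pulls substrates from the membrane, at -1.10, its cofactor NPLOC4 at -0.75 and the lectin ERLEC1 at 0.75 (limma adjusted p = 0.00195, 0.0051 and 0.00716).

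The list of 28 other translocon and glycosylation factors had the highest median, 1.05, with 14 genes higher and 5 lower. Over all genes 26.8% were higher and 28.1% lower. All genes under 1000 nt had a median of 1.11, with 51.7% higher, and the part of length in this list was not tested. SEC61A2, a second gene for the large channel subunit, rose by 1.63, while the signal recognition particle subunit SRP68 and the receptor SRPRA were at -1.08 and -0.99 (limma adjusted p = 0.00449, 0.00243 and 0.00306). Of 18 COPII coat genes and cargo receptors 3 rose and 7 fell (median 0.21), with SEC24C at -1.47, the cargo receptor LMAN1 at -1.16 and SEC24A at -0.99 (limma adjusted p = 0.00105, 0.00416 and 0.00341). Of 7 other transducers 0 rose and 2 fell (median -0.49), ATF6B, the relative of ATF6, at -1.43 and WFS1 at -0.77 (limma adjusted p = 0.0112 and 0.0134). MBTPS1 came next at -0.54, which did not pass (limma adjusted p = 0.0655). With pyrimethamine 0 genes of these 5 lists passed in limma or edgeR, and DESeq2 called 1 folding factor and 1 degradation factor. At an unadjusted p under 0.05 limma had 3 folding factors, 2 COPII genes and 1 gene in each of the other lists. That level was reached by 2971 of the 15350 genes tested. The smallest limma adjusted p was 0.0793 for GANAB (-0.96), 0.0848 for VCP (-0.73), 0.13 for MBTPS2, the site-2 protease that cuts ATF6 (-0.75), 0.162 for KDELR1, a receptor that returns ER proteins from the Golgi (-0.57), and 0.211 for SRP72 (-0.57). Next in these lists were TXNDC5, FKBP2, SELENOS, RNF139, SRPRA, SEC11C, LMAN1, SEC24B, ATF6B and CREB3L4, none past the test.

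**Figure D5:**
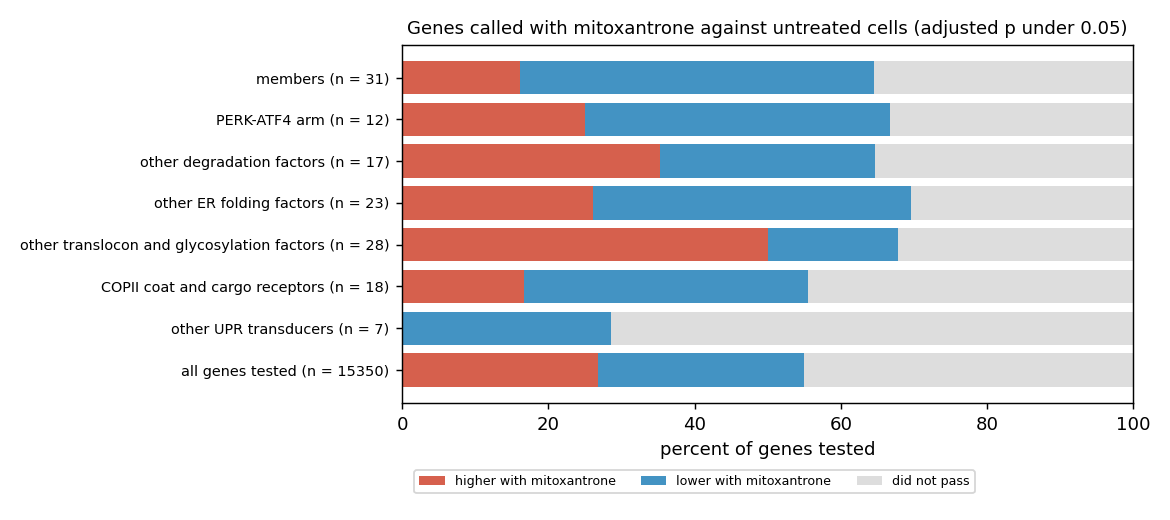
Share of tested genes (x axis, percent) called higher or lower with mitoxantrone against untreated cells at a limma adjusted p under 0.05, for the 31 members, 6 neighbouring lists and all 15350 genes. The members show 16.1% higher and 48.4% lower, all genes 26.8% and 28.1%.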

How the data were processed

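Total RNA of 8 KYSE70 libraries was sequenced, and groups were taken from the labels. The authors deposited 1 table of 28281 genes holding a normalised signal, read counts divided by a size factor per library, as the values show. Reads were handled with FastQC 0.11.5, cutadapt 1.12, STAR 2.6.90c, featureCounts 1.5.1 and hg38, per the submitters' processing notes; no source used here gives the strand setting or the treatment of multiply mapped reads. Whole reads were recovered from the signal within 0.1 read. Genes with a mean of at least 10 were tested on log2(value + 1) with limma 3.58.1 (trend, 8 libraries together, 5 residual degrees of freedom, R 4.3.3), with Benjamini-Hochberg adjustment over 15350 genes and a threshold of 0.05. Fold changes understate those of low genes. In a count test the recovered reads went to edgeR 4.0.16 and DESeq2 1.42.0. Transcript lengths came from GENCODE and were found for 91.4% of tested genes. Only the limma fit was tested on simulated counts. Their spread was taken from the mitoxantrone and untreated libraries, so the wide spread between the pyrimethamine libraries was not simulated. Genes named with full values were the 14 leading members plus the smallest adjusted p of each role and, from each neighbouring list, the 3 smallest. PDIA4, P4HB, PDIA3, PDIA6, ERO1A, SYVN1, SEC61A1, SSR1, DNAJB11, DNAJC3, CRELD2 and the ratio pairs were added after their values were seen. The members and lists were chosen with earlier results of these data known. Other settings tried were pseudocounts, filters, scalings, edgeR, DESeq2, groups alone, length adjustment, replicate blocks and each library left out.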

Additional observations from a re-analysis of the deposited data

How the results depend on the processing

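With mitoxantrone against untreated cells the counts stayed within 1.5 times of 8430 genes and 20 members in all 13 other settings and all 8 fits that left out 1 library (5687 to 11841 genes, 15 to 27 members). With pyrimethamine, 553 genes became 291 with no filter, 322 with quantile normalisation, 1738 with DESeq2, 1145 with length adjustment and 0 in the groups alone; members, 0 at first, were 1 with a mean of at least 50, 1 with total-read scaling, 4 with DESeq2 and 2 with length adjustment. Between the compounds, 6299 genes and 12 members became 0 and 0 in the groups alone, and 23 members with total-read scaling. Leaving out 1 library gave 10 to 7571 genes and 0 to 24 members with pyrimethamine, and 0 to 11638 genes and 0 to 30 members between the compounds. The cause was not tested.

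The pyrimethamine titles number the libraries 1 and 2, while their names in the table end in 1 and 3, so both numberings were checked for pairing. By title, correlations of same-numbered deviations were -0.287 and 0.127 between mitoxantrone and pyrimethamine, 0.0526, -0.0078 and 0.0183 between mitoxantrone and untreated cells, and -0.0841 and -0.120 between pyrimethamine and untreated cells. By library name, the second pyrimethamine library had -0.410 with mitoxantrone replicate 3 and 0.0295 with untreated replicate 3. Whether either numbering pairs the libraries cannot be decided from these values, because deviations from a group's mean sum to 0 within the group. Those of the 2 pyrimethamine libraries mirror each other. With a replicate block 7251 genes and 17 members were called with mitoxantrone, 0 and 0 with pyrimethamine and 0 and 0 between the compounds. With the block by library name these were 6592 and 17, 0 and 0, and 0 and 0.

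Of the 31 members, the log2 differences that turned sign with mitoxantrone were, under total-read scaling, XBP1 (-0.32), MANF (-0.28), ERO1A (-0.29) and SSR1 (-0.0998), with length adjustment, ATF6 (0.16), XBP1 (-0.28) and MANF (-0.67), and with quantile normalisation, XBP1 (-0.15) and SDF2L1 (0.079). With pyrimethamine they were, under total-read scaling, ERN1 (0.0087), DNAJB11 (0.0294), SEL1L (0.0875), SEC61G (0.0471) and SSR1 (0.0079), in edgeR, ERN1 (0.37), SEC61B (0.0899) and SEC61G (0.10), in DESeq2, ERN1 (0.30), SEC61B (0.0818) and SEC61G (0.0924), with quantile normalisation, HSPA5 (0.0397), HSP90B1 (0.0257), DNAJB11 (0.0263), P4HB (0.0493), PDIA3 (0.16), CALR (0.26), SEL1L (0.0325) and SEC61A1 (0.0588), and with the replicate block, CRELD2 (-0.0177). Between the compounds they were, under total-read scaling, XBP1 (-0.20), SDF2L1 (-0.44), MANF (-0.52), PDIA6 (-0.47), ERO1A (-0.67), HERPUD1 (-0.32) and SSR1 (-0.11), with length adjustment, ERN1 (0.0574), ATF6 (0.40), SDF2L1 (-0.76), MANF (-0.68), PDIA3 (0.17) and CANX (0.0446), with quantile normalisation, PDIA6 (-0.49) and ERO1A (-0.32), and for ERO1A also with upper-quartile scaling (-0.0522) and in edgeR (-0.089).

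Leaving out 1 library, the pyrimethamine difference ranged from -1.56 to 0.60 for HSP90B1, -0.98 to 0.32 for XBP1, -1.47 to 1.05 for ERN1, -0.71 to 0.79 for EIF2AK3, -0.18 to 0.82 for HERPUD1, -0.54 to 1.115 for DNAJB9, -0.401 to 0.0195 for DNAJB11, -0.89 to 0.28 for DNAJC3, -0.80 to 0.0829 for SDF2L1, -0.0456 to 0.11 for CRELD2, -0.24 to 0.27 for MANF, -1.15 to 0.29 for PDIA4, -0.0237 to 0.34 for ERO1A, -1.30 to 0.79 for SEC61B, -1.09 to 0.75 for SEC61G, -0.76 to 0.33 for SSR1, -0.36 to 0.0969 for SEL1L, -0.88 to 0.36 for SYVN1 and -0.0367 to 0.71 for EDEM1. Between the compounds it ranged from -2.15 to 0.0044 for HSP90B1, -0.17 to 1.1215 for XBP1, -1.83 to 0.69 for ERN1, -0.14 to 0.85 for HERPUD1, -0.21 to 0.68 for SDF2L1, -0.0891 to 0.42 for MANF, -0.41 to 0.0916 for PDIA3, -0.10 to 0.51 for PDIA6 and -0.17 to 0.19 for ERO1A. ERN1 had the lowest counts of the members, 27.8 to 164 normalised counts.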
